A study of Homo sapiens with 6 samples.

Results

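PI15 and its relatives of the CAP family were followed in SUM159 oncospheres, as all features on an expression array (probe sets, each a group of short probes read together) that the array's annotation assigns to exactly 1 of the genes PI15, CRISPLD1, CRISPLD2, GLIPR1 and GLIPR2. PI15 was chosen by its measured difference between the groups, and the other 4 because they belong to the same protein family. The rule found 10 probe sets for 4 of the 5 genes: 2 for PI15, 1 for CRISPLD1, 2 for CRISPLD2 and 5 for GLIPR1. They were taken from 54613 probe sets tested, which held 19775 genes with a probe set of their own. The annotation used here assigned no probe set to GLIPR2, so it has no value.

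SUM159 is an established human breast cancer cell line without estrogen receptor. By the labels, the SCGB3A1 cells carried the lentiviral vector pLVX-puro with human SCGB3A1, a small secreted protein of the secretoglobin family (3 arrays), and the control cells carried pLVX-puro without an insert (3 arrays). All cells were selected with puromycin at 2 μg/ml for 7 days, seeded at 12500 cells/ml on ultra-low attachment dishes and grown for 5 days as floating spheres (oncospheres) in HuMEC-medium with BSA and B27 supplement. The comparison asked how breast cancer cells respond to SCGB3A1. The 3 samples of a group are named biological replicates, but the sources used here do not say whether each came from its own transduction, and p-values therefore measure the spread between these samples.

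CAP proteins share a compact domain named after cysteine-rich secretory proteins, antigen 5 and pathogenesis-related 1 proteins. Most are secreted, and family members have been tied to fertilization, matrix remodelling and host defence. PI15 (peptidase inhibitor 15) is a secreted member that binds trypsin. CRISPLD1 and CRISPLD2 are secreted and carry LCCL domains behind the CAP domain, and CRISPLD2 is induced by glucocorticoids in the lung and airway. GLIPR1 is a glioma-associated member and a target gene of p53, and GLIPR2 lies on the cytosolic side of the Golgi and binds the autophagy protein beclin 1.

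The arrays labelled SCGB3A1 read PI15 higher than control through 1 of its 2 probe sets. Probe set 229947_at, built on an expressed sequence tag, read 8.70, 9.11 and 8.99 in the arrays labelled SCGB3A1, against 8.29, 8.20 and 8.34 in control (RMA expression on the log2 scale). The groups did not overlap, and the lowest array labelled SCGB3A1 stood 0.36 above the highest control. The means were 8.94 ± 0.21 in the arrays labelled SCGB3A1 and 8.27 ± 0.07 in control (SD, n = 3 each), a log2 fold change of 0.66 ± 0.10 (SE) or 1.58-fold, with a 95% interval of 0.44 to 0.88. The arrays labelled SCGB3A1 spanned 0.41 and the controls 0.14, with replicate 1 the lowest of the arrays labelled SCGB3A1. In RNA of whole cultures, more cells of a kind and more RNA per cell cannot be told apart.

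**Figure D1:**
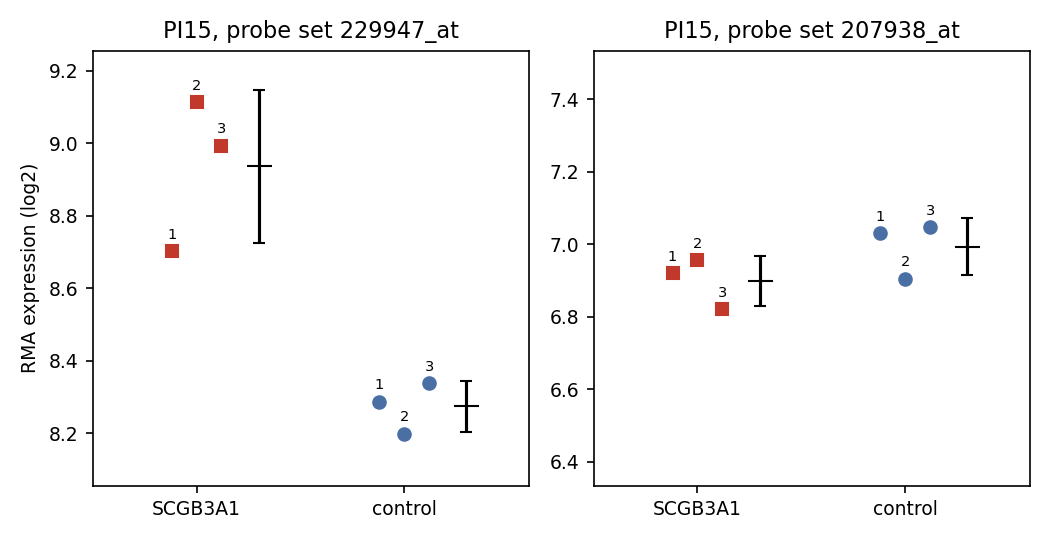
RMA expression (log2, vertical axis) of PI15 in each array, by probe set, with squares for the arrays labelled SCGB3A1, circles for control, digits for the replicate, and bars for mean and SD (n = 3). Both axes span the same width and have their own height. In 229947_at the arrays labelled SCGB3A1 lie from 8.70 to 9.11, all above the controls, and in 207938_at the groups overlap.

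This difference was the ground on which PI15 was picked, so its p-value is a description and no test. It had an adjusted p = 0.083 in limma and rank 8 of 54613 probe sets by the size of the fold change. It met the limits set for an SCGB3A1 signature, which ask for a log2 fold change over 0.5 in either direction, an unadjusted p below 0.05 and an adjusted p below 0.25. The named genes just inside the fold limit, among those that met both p limits, were GUCY1A1 at 0.54 and CLDN1 at 0.54, and those just outside were IFNGR1 at 0.46 and DSP at 0.45. PI15 no longer met the criteria without SCGB3A1 replicate 2 (0.57, limma adjusted p = 0.65), without SCGB3A1 replicate 3 (0.63, adjusted p = 0.27) or without control replicate 1 (0.67, adjusted p = 0.33). Without SCGB3A1 replicate 1, the lowest of its group, the log2 fold change was 0.78 (limma adjusted p = 0.041).

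The other probe set of PI15 did not show this difference. Probe set 207938_at, built on a RefSeq transcript, read 6.92, 6.96 and 6.82 in the arrays labelled SCGB3A1, against 7.03, 6.90 and 7.05 in control. The groups overlapped, and the log2 fold change was -0.09 ± 0.08 (SE, 95% interval -0.26 to 0.07). Its means, 6.90 in the arrays labelled SCGB3A1 and 6.99 in control, lay close to the median level over all probe sets, 6.91, and whether it was above background was not analysed here. Which transcripts of PI15 each probe set reads is not given in the sources used here.

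The 2 probe sets of PI15 thus differed by 0.76 in log2 fold change. Among the 5015 genes with exactly 2 probe sets of their own, the median gap was 0.087 and PI15 had the largest. Since PI15 was picked for 1 of these fold changes, its gap is a description and no test. The gap ran from 0.69 to 0.88 with 1 array left out. Relative to the control mean, 229947_at read 0.43, 0.84 and 0.72 in replicates 1, 2 and 3 labelled SCGB3A1, while 207938_at read -0.07, -0.04 and -0.17 on the same arrays.

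**Figure D2:**
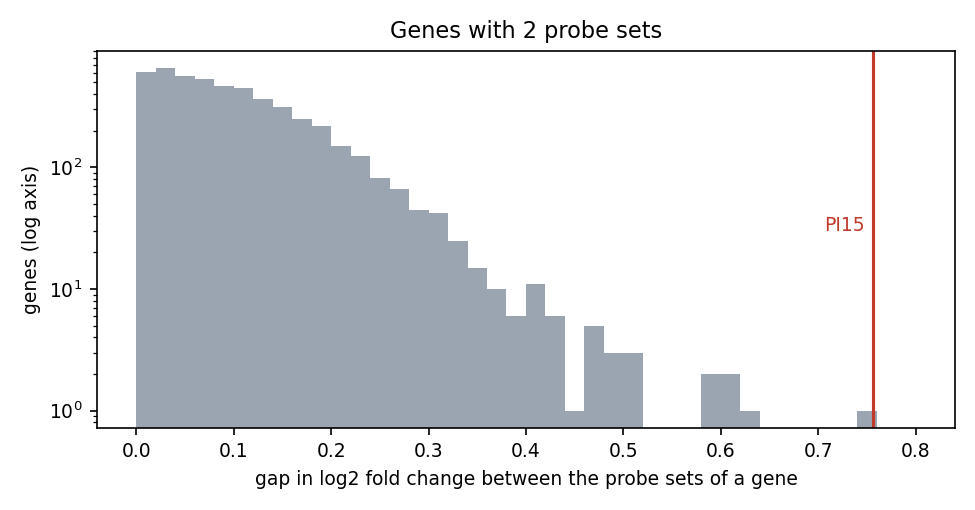
Number of genes (vertical axis, log scale) by the gap in log2 fold change between their probe sets (horizontal axis), over the 5015 genes with 2 probe sets of their own. The median gap is 0.087, and the line marks PI15 at 0.76.

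CRISPLD1, the relative that lies next to PI15 in the genome, did not differ beyond the spread between arrays. Its probe set, 223475_at, read 8.63, 8.74 and 8.73 in the arrays labelled SCGB3A1, against 8.69, 8.68 and 8.55 in control. The values overlapped, with replicate 1 the lowest of the arrays labelled SCGB3A1 and replicate 3 the lowest control. The log2 fold change was 0.06 ± 0.07 (SE, 95% interval -0.10 to 0.22; limma adjusted p = 0.92).

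CRISPLD2 was read by 2 probe sets, both with negative log2 fold changes, and neither passed. Probe set 1555809_at read 7.21, 7.14 and 7.00 in the arrays labelled SCGB3A1, against 7.36, 7.31 and 7.27 in control. These groups did not overlap, though the lowest control stood only just above the highest array labelled SCGB3A1. The log2 fold change was -0.19 ± 0.08 (SE, 95% interval -0.36 to -0.02) and had an adjusted p = 0.78 in limma. Probe set 221541_at read 8.88, 8.92 and 8.96 in the arrays labelled SCGB3A1, against 8.94, 9.07 and 8.94 in control. Here the groups overlapped, and the log2 fold change was -0.06 ± 0.07 (SE; limma adjusted p = 0.92).

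None of the 5 probe sets of GLIPR1 passed adjusted p 0.05, at 0.88 to 0.98 in limma, and their log2 fold changes ran from -0.11 to 0.02. Probe set 204222_s_at read 10.70, 10.66 and 10.58 in the arrays labelled SCGB3A1, against 10.72, 10.41 and 10.74 in control (log2 fold change 0.02 ± 0.09 SE). Probe set 214085_x_at read 10.98, 11.01 and 11.03 in the arrays labelled SCGB3A1, against 11.15, 11.19 and 10.97 in control (log2 fold change -0.10 ± 0.08 SE). The groups overlapped in both, in 214085_x_at only through control replicate 3.

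Of the remaining GLIPR1 probe sets, 226136_at read 9.51, 9.68 and 9.60 in the arrays labelled SCGB3A1, against 9.65, 9.72 and 9.62 in control (log2 fold change -0.07 ± 0.08 SE). Probe set 226142_at read 9.76, 9.82 and 9.99 in the arrays labelled SCGB3A1, against 9.88, 10.07 and 9.78 in control (log2 fold change -0.05 ± 0.09 SE). Probe set 204221_x_at read 9.35, 9.18 and 9.70 in the arrays labelled SCGB3A1, against 9.34, 9.76 and 9.46 in control (log2 fold change -0.11 ± 0.13 SE). This last one varied most, with an SD within groups of 0.24, above that of 98.3% of all probe sets, whose median was 0.097.

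The probe sets of GLIPR1 did not deviate the same way on each array. Control replicate 2 was the highest control array in 4 of them and the lowest in 204222_s_at, where it stood 0.21 below the control mean. That array stood apart over the whole table: it correlated with the other arrays at 0.989 to 0.993, against 0.993 to 0.996 among the rest. Without it, 3 of the 5 fold changes turned sign, to 0.014 for 204221_x_at, -0.08 for 204222_s_at and 0.03 for 226142_at. The suffix _x_at marks probe sets with probes that match other sequences, and KRR1, a ribosome assembly gene, overlaps GLIPR1 in the RefSeq annotation. The readings of GLIPR1 are uncertain, and whether either plays a part in them was not tested.

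**Figure D3:**
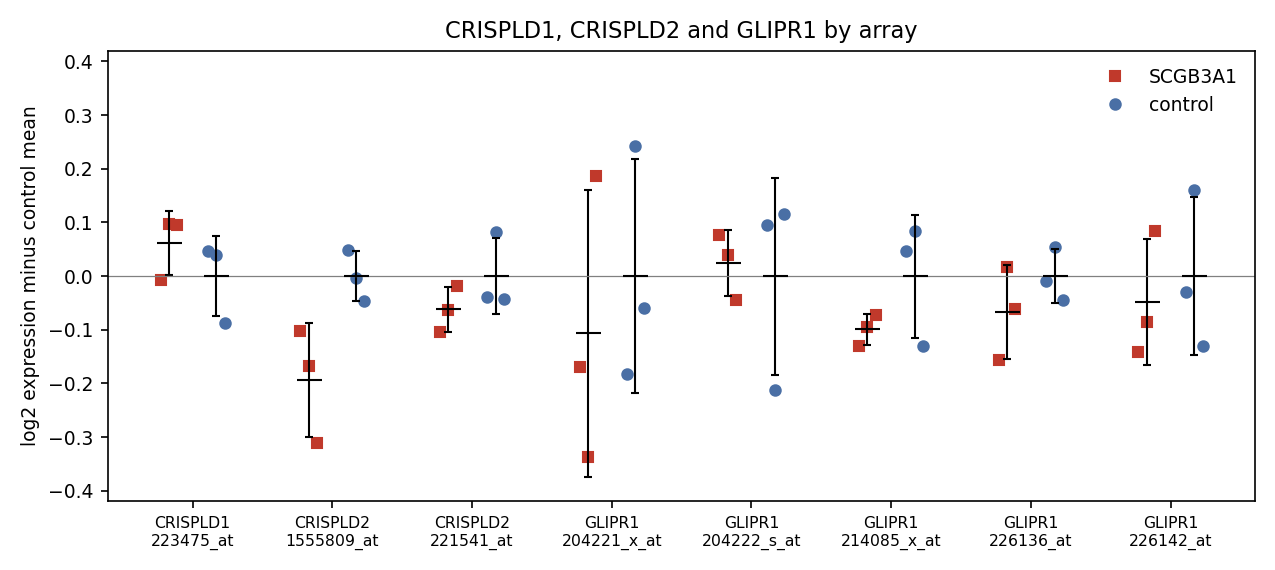
Log2 expression minus the control mean (vertical axis) of the 8 probe sets of CRISPLD1, CRISPLD2 and GLIPR1, with squares for the arrays labelled SCGB3A1, circles for control, ordered by replicate from left to right, and bars for mean and SD (n = 3). The groups overlap in 7 of the 8, and in 1555809_at of CRISPLD2 the arrays labelled SCGB3A1 lie below control.

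None of the 10 probe sets passed adjusted p 0.05 in limma, where 0.0183% of all probe sets did. An unadjusted p under 0.05 was met by 2 of the 10, with 229947_at among them, and by 6.20% of all. Among the 8 probe sets of the relatives it was met by 1. The signature criteria were met by 1, the probe set 229947_at that PI15 was chosen by, against 0.0311% of all probe sets, from which nothing is read. The arrays labelled SCGB3A1 lay wholly above control in 1 member probe set, against 5.95% of all. This was again 229947_at, so nothing is read from it. In 1 other, 1555809_at of CRISPLD2, they lay wholly below control, against 5.25% of all. The 8 probe sets of the relatives had a median log2 fold change of -0.06, 6 of them were negative, and their 95% intervals all lay between -0.40 and 0.23, inside the fold limit of 0.5. The median over all probe sets was 0.0026, and 51.0% of them were positive.

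**Figure D4:**
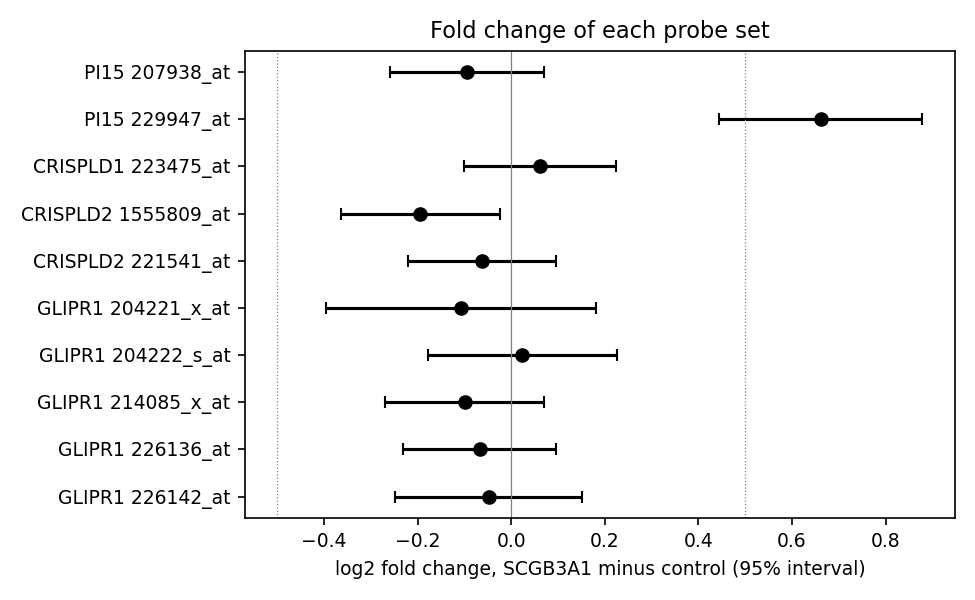
Difference in log2 expression between the arrays labelled SCGB3A1 and control (horizontal axis), for each of the 10 probe sets, with the 95% interval from limma and dotted lines at the fold limit of 0.5 in both directions. PI15 is at 0.66 in 229947_at and -0.09 in 207938_at, and the relatives lie between -0.19 and 0.06.

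Of 10 further members of the CAP superfamily, 6 were measured by 7 probe sets. None passed adjusted p 0.05 in limma, against 0.0183% of all probe sets, so nothing is read from this. None had an unadjusted p under 0.05, against 6.20% of all. The log2 fold changes of these 7 ran from -0.10 for CRISP3 to 0.14 for R3HDML, with a median of 0.04. PI16, a CAP protein of heart and blood vessels, read 0.07. Among proteins that share the LCCL domain with CRISPLD1 and CRISPLD2, 4 genes were measured by 10 probe sets. None of these passed in limma, against 0.0183% of all, and 1 had an unadjusted p under 0.05, against 6.20% of all. That was 239446_x_at of DCBLD2, a transmembrane receptor-like protein, at -0.30 (limma adjusted p = 0.56). It is of the _x_at kind, and its group means, 6.45 and 6.75, lay below the median level over all probe sets, 6.91. The other probe sets of DCBLD2 read -0.09, -0.04 and -0.02. VIT, a matrix protein first found in the eye, read 0.10.

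Trypsin-like proteases, the class of enzyme that PI15 binds, were read by 20 probe sets of 10 genes. None passed in limma, against 0.0183% of all, and 1 had an unadjusted p under 0.05, against 6.20% of all. PRSS23, a secreted serine protease, read 8.48, 8.37 and 8.39 in the arrays labelled SCGB3A1, against 8.75, 8.78 and 8.75 in control, in probe set 226279_at. These groups did not overlap (log2 fold change -0.35, limma adjusted p = 0.31), while its other 3 probe sets read -0.15, -0.10 and 0.06. PRSS2, a trypsinogen, read -0.17 and 0.08 in its probe sets, and ST14, the membrane protease matriptase, -0.09 to 0.11.

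Other secreted protease inhibitors, of the Kunitz, Kazal and WAP families, were read by 22 probe sets of 12 genes, with a median log2 fold change of -0.0060. None passed adjusted p 0.05 in limma, against 0.0183% of all probe sets. An unadjusted p under 0.05 was met by 4 of the 22, against 6.20% of all. In 4 of the 22 the arrays labelled SCGB3A1 lay wholly below control, against 5.25% of all. TFPI2, a Kunitz inhibitor of the extracellular matrix, read 6.33, 6.87 and 6.85 in the arrays labelled SCGB3A1, against 7.43, 6.98 and 7.32 in control, in probe set 209277_at (log2 fold change -0.56, limma adjusted p = 0.64). Its other probe set read -0.27. WFDC2, a WAP protein, read -0.21 in 203892_at, and -0.04 and -0.01 in its others. SPINT2, a Kunitz inhibitor of matriptase, read 0.23.

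Genes tied to the relatives by their biology were read as well. The partners of GLIPR2, beclin 1 with its lipid kinase complex and caveolin 1, were read by 22 probe sets of 7 genes. None passed in limma, against 0.0183% of all probe sets, so nothing is read from this. None had an unadjusted p under 0.05, against 6.20% of all. The log2 fold changes of these 22 ran from -0.14 to 0.07. The lowest and the highest of these both belonged to PIK3C3, the kinase of the complex. CAV1, the caveolin gene, read -0.07 and -0.06. Glucocorticoid-responsive genes, the class that CRISPLD2 belongs to in the lung, were read by 17 probe sets of 7 genes. None passed in limma, against 0.0183% of all, and 2 had an unadjusted p under 0.05, against 6.20% of all. DUSP1, a phosphatase induced by glucocorticoids, read 0.26 in 226578_s_at and -0.05 and 0.03 in its others. KLF9 ran from -0.22 to 0.0034, and TSC22D3 from -0.04 to 0.19.

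The nearest protein-coding neighbours of the members with a probe set of their own were 16 genes read by 47 probe sets. None passed adjusted p 0.05 in limma, against 0.0183% of all probe sets, so nothing is read from this. An unadjusted p under 0.05 was met by 2, against 6.20% of all. The log2 fold changes of the 47 ran from -0.22 to 0.23, with a median of -0.00012. Beside PI15, JPH1 read -0.13 and -0.04, GDAP1 -0.07 to 0.03, and HNF4G -0.09 and 0.07, and ZFHX4, beyond CRISPLD1, ran from -0.01 to 0.09. The lowest was COTL1, an actin-binding protein gene beside CRISPLD2, and the highest CLTA, a clathrin light chain gene beside GLIPR2.

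Likeness of other genes to PI15 in 229947_at was measured as the mean absolute difference, over the 6 arrays, between the deviations of both genes from their control means. This measure picks genes with a fold change of similar size, so the values are a description. Each gene was taken through its probe set closest to 229947_at, and any other probe sets of these genes are not shown here. CD36, a fatty acid receptor, came closest with 0.068, and read 9.12, 9.33 and 9.18 in the arrays labelled SCGB3A1, against 8.47, 8.39 and 8.46 in control. It was followed by GUCY1A1, part of the soluble guanylate cyclase, with 0.094, KRT16, a stress keratin, with 0.10, MIR205, the annotated gene of a microRNA, with 0.13, and TNNT3, a troponin of skeletal muscle, with 0.13. In PI15, CD36, GUCY1A1 and KRT16, replicate 1 was the lowest of the arrays labelled SCGB3A1, and in MIR205 and TNNT3 it was replicate 3.

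**Figure D5:**
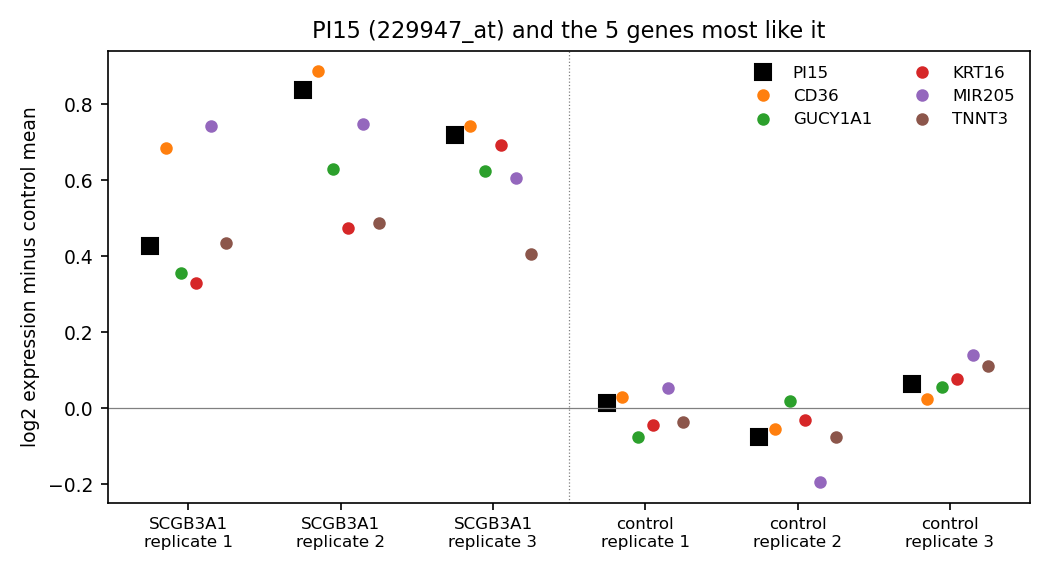
Log2 expression minus the control mean (vertical axis) in each of the 6 arrays (horizontal axis), for PI15 in 229947_at (black squares) and the 5 genes most like it (coloured circles). PI15 reads 0.43, 0.84 and 0.72 in the arrays labelled SCGB3A1, and CD36 0.69, 0.89 and 0.74.

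Over the whole table, the probe set of SCGB3A1, 230378_at, averaged 6.74 ± 0.16 in the arrays labelled SCGB3A1 and 6.91 ± 0.13 in control (SD, n = 3 each), with overlapping groups (log2 fold change -0.17 ± 0.10 SE, adjusted p = 0.83 in limma). Whether it covers the sequence in the vector is unknown here. Expression from the vectors was checked by qPCR in the infected cells, per the study's methods, and every direction given here holds for the arrays as labelled. The 15 probe sets of VIM and CD44, marks of a mesenchymal-like breast cancer line, read between 5.97 and 14.4 on the log2 scale, and the 16 of the luminal genes ESR1, PGR, GATA3 and FOXA1 between 5.91 and 8.26, and levels of different probe sets cannot be set against each other. Sums of linear levels are therefore set only against the same sum in the other group, and they weigh the brightest probe sets most. The summed linear level of the luminal probe sets was 1690 to 1755 in the arrays labelled SCGB3A1 and 1763 to 1857 in control. That of the 15 probe sets of VIM and CD44 was 39904 to 40439 in the arrays labelled SCGB3A1 and 41215 to 43413 in control. The brightest of these 15, 201426_s_at of VIM, averaged 14.4 in both groups. The sum over 10 haematopoietic probe sets was 1579 to 1631 in the arrays labelled SCGB3A1 and 1521 to 1554 in control. LAPTM5 was at a log2 fold change of 0.25 and 0.20, CD53 at -0.16 to 0.0036, and PTPRC, which defines the lineage, at -0.09 to 0.04. The sum over 8 endothelial probe sets was 1409 to 1502 in the arrays labelled SCGB3A1 and 1389 to 1432 in control. PECAM1 read 0.27, 0.23, -0.02, -0.06 and -0.12, VWF -0.0032 and 0.20, and CDH5 -0.13. None of these probe sets passed adjusted p 0.05 in limma, against 0.0183% of all. An unadjusted p under 0.05 was met by 2 of the VIM and CD44 and 0 of the luminal probe sets. It was met by 2 of the 10 haematopoietic and 3 of the 8 endothelial ones, against 6.20% of all. In the same order, 1, 0, 2 and 3 had the arrays labelled SCGB3A1 wholly above control, against 5.95% of all. Wholly below it were 1, 1, 0 and 2, against 5.25%. The part of these marker genes in the reading of PI15 was not tested.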

How the data were processed

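RNA of each sample (100 ng) was run on its own Affymetrix U133 Plus array. The deposited values are log2 expression per probe set, made by the authors with robust multiarray average (RMA), whose quantile step gives all arrays 1 distribution and hides shifts common to all genes. The precision is limited by the number of arrays. All sample columns were used (0 left out).

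Manufacturer controls (62 of 54675 probe sets) were set aside. Gene names came from the platform annotation given by GEO, with identifiers brought up to date through RefSeq (GRCh38.p14), and 41091 probe sets had 1 symbol, 1801 more than 1, and 11721 none.

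The remaining 54613 probe sets were fitted in limma 3.58.1 (R 4.3.3, lmFit and eBayes) with group as the only term and Benjamini-Hochberg adjustment, following the study's empirical Bayes comparison. Tests were two-sided, fold changes are arrays labelled SCGB3A1 over control, and the fit was tested on simulated data. The members and gene lists were chosen with earlier results of these data known. Named beside the members were, from each list, genes among the 3 with the smallest p, neighbours of the members in the RefSeq table, the 5 genes most like PI15, and SCGB3A1. Alternatives were centring on the median, an intensity trend, weighted arrays, the replicate number as a block, leaving out single arrays, and dropping probe sets that were dim (mean at or below the median probe set) or of the cross-hybridizing kind (suffix _x_at).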

Additional observations from a re-analysis of the deposited data

How the results depend on the processing

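The number of member probe sets past adjusted p 0.05 was 0 and became 1, PI15 in 229947_at, with an intensity trend in the variance (limma adjusted p = 0.033; log2 fold change 0.66) and with array weights (adjusted p = 0.041; 0.66). With 1 array left out it was 0 to 1, and the number that met the signature criteria 0 to 1. In these fits the log2 fold change of 229947_at ran from 0.57 to 0.78 and that of 207938_at from -0.14 to -0.06. Without dim probe sets the adjusted p of 229947_at was 0.12, and without cross-hybridizing probe sets 0.062. Since PI15 was picked by this difference, these counts and p-values are a description and no test. Of all probe sets, 19 passed with the trend and 16 with array weights, against 10 in the main fit.

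GLIPR1 turned sign in several fits, in none of which it passed. With 1 array left out, 204221_x_at ran from -0.25 to 0.014, 204222_s_at from -0.082 to 0.082 and 226142_at from -0.11 to 0.032, and with array weights 204222_s_at read -0.025. The cause was not tested. Over the 10 member probe sets, 109 of 118 alternative fold changes kept their sign and their side of the threshold, and the 9 others are the 3 fits in which PI15 passed and 6 sign changes of GLIPR1.

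Over all probe sets, the count past adjusted p 0.05 was 10, against 19 with the trend, 16 with array weights, 6 without dim probe sets and 1 to 6 with 1 array left out. The count for the signature criteria was 17, and 7 to 23 with 1 array left out. With the replicate number as a block, 4 probe sets passed, and 229947_at kept 0.66 (limma adjusted p = 0.17). Same-numbered samples deviated with correlations of 0.15, -0.14 and -0.09, and 1 of 3 samples labelled SCGB3A1 correlated best with its own number, so the samples were not taken as pairs. Without dim probe sets, list medians moved to 0.11 for the other CAP genes, -0.12 for luminal and 0.11 for endothelial markers; the remaining 117 of 120 list medians moved by less than 1 SD. Signal over background was not analysed here, which limits what the dim probe sets can show.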
